A study of Homo sapiens with 4 samples.

Results

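The gene-dense block from SRR to METTL16 on the short arm of chromosome 17 was examined for contact domains and their borders in human embryonic stem cells and in neuroectoderm. It was chosen by position as the bins from the start of SRR to the start of METTL16, which are 210 of the 2000 bins of each deposited contact matrix. A bin is a 10-kb window, and bins start every 1 kb, so the block runs from chr17:2298501-2517500 (hg38). All 210 bins held values in each of the 4 libraries. All libraries came from H9, a wild-type and widely used line of human embryonic stem cells (hESC). The 2 hESC libraries had no treatment, and the 2 neuroectoderm libraries were made from H9 after neuroectodermal differentiation. Per the study's methods this was done with noggin and SB431542, inhibitors of BMP and TGF-beta signalling. The labels do not say whether replicates were separate cultures. The permutation and limma p-values below therefore rest on the spread between these libraries, which may be technical. Limma also draws on the spread over all windows or window pairs of the matrix. The chi-square and exact Poisson p-values cover counting error of reads only. The file headers do not tell the cell types apart, so that which matrix is hESC and which is neuroectoderm rests on the labels. Hi-C holds no expression values, so the identity of the cells could not be checked by marker genes.

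Hi-C joins DNA ends that lie close together in the nucleus and counts the joined pairs. Chromosomes are folded into contact domains, which are thought to form as cohesin extrudes loops of DNA until it is stopped at sites bound by CTCF, and which change in strength during differentiation. A border between domains is a place that few contacts cross. Borders in mammalian genomes are often found in gene-dense stretches, near active promoters and CTCF sites, whereas long genes can form domains of their own.

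GENCODE 44 places the starts of 6 protein-coding genes in the block. The start of SMG6 (ENSG00000070366.14; 2059839 to 2303785, minus strand), an endonuclease of nonsense-mediated mRNA decay, lies at its left end and faces away from it. SRR (ENSG00000167720.13; 2303383 to 2325260, plus strand) encodes serine racemase, the enzyme that makes D-serine for NMDA receptors. TSR1 (ENSG00000167721.11; 2322396 to 2336657, minus strand) is a factor for maturation of the small ribosomal subunit, and its start lies close to that of SGSM2 (ENSG00000141258.13; 2337498 to 2381058, plus strand), which encodes a regulator of Rab GTPases. MNT (ENSG00000070444.15; 2384073 to 2401104, minus strand) encodes a MAX-binding repressor that opposes MYC. METTL16 (ENSG00000127804.13; 2405562 to 2511891, minus strand), an RNA adenosine methyltransferase, takes up the right part of the block as a single long gene. Sequence composition followed this division only in part. The 10 windows from SRR to MNT had a median GC content of 50.5% (range 44.5% to 61.2%), and the 10 windows of METTL16 had a median of 44.5% (range 40.9% to 48.6%), against 50.1% over the 200 windows of the matrix. The windows over SRR, chr17:2298501-2328500, held 49.1%, 44.8% and 44.5%, and those from chr17:2348501-2398500 held 51.7% to 61.2%. The window at the start of MNT, which is in neither set, held 56.1%.

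The sequences that could mark borders are the matches to the CTCF core CCANNAGGNGGC, searched on both strands. The block held 3 matches, in 3 of its 21 non-overlapping windows (14.3%), and 27 of the 200 windows of the matrix (13.5%) held one. They are shown 5′ to 3′ on the matching strand, with the core in capitals, because each lies within a 10-kb bin at which some library had a minimum of insulation.
SGSM2 intron, chr17:2353222-2353233, minus strand: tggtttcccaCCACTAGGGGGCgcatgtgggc
SGSM2 intron, chr17:2369930-2369941, minus strand: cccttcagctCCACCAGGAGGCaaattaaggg
METTL16 intron, chr17:2412761-2412772, plus strand: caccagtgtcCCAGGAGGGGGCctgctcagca
Both matches in SGSM2 point to lower coordinates, and the match in METTL16 points to higher coordinates. A match is a run of letters and was not tested for CTCF binding, and other bins with such a minimum held none. The promoters of SRR and MNT are shown because the windows of these 2 gene starts held more read pairs than expected in both hESC libraries and fewer in both neuroectoderm libraries. They are 300 bases from RefSeq (GRCh38.p14, identical to the hg38 sequence), with each CpG in capitals.
SRR, chr17:2303693-2303992, plus strand: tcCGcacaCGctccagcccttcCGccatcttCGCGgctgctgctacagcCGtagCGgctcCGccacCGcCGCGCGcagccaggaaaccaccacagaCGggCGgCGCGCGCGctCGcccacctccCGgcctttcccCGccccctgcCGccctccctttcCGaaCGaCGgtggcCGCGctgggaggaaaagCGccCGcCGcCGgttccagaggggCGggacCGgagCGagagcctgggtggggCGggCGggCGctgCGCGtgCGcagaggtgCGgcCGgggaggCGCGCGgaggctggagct
MNT, chr17:2401011-2401310, minus strand: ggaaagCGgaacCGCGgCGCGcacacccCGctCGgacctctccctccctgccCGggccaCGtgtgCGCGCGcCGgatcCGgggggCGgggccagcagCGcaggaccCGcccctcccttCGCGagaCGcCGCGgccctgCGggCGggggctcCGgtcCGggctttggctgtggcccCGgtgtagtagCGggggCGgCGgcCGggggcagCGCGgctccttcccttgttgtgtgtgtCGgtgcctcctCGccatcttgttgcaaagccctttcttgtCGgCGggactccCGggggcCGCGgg
The SRR promoter held 45 CpG and the MNT promoter 40, whereas the median of 35116 RefSeq promoters was 14. The other promoters held 46 CpG (SMG6), 38 (SGSM2), 28 (TSR1) and 21 (METTL16). None of them held the CTCF core, which was found in 1.05% of all promoters.

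Read pairs in the block were counted over 21 non-overlapping 10-kb windows. The hESC libraries held 5065 and 5162 and the neuroectoderm libraries 3459 and 3373. Window pairs at least 20 kb apart, of which there are 190, held 1777 and 1783 read pairs in hESC but only 757 and 753 in neuroectoderm, a mean of 9.35 and 9.38 per window pair against 3.98 and 3.96. Read pairs that joined a window to itself made up 43.5% and 43.7% in hESC and 62.2% and 61.6% in neuroectoderm. Over the whole matrix they made up less, 29.7% and 30.01% in hESC and 44.5% and 43.5% in neuroectoderm. Replicates in the block differed by no more than counting error (chi-square per degree of freedom 1.04, p = 0.378 over 117 window pairs in hESC, and 1.02, p = 0.440 over 55 in neuroectoderm). Libraries of different cell types did not differ by more than that either (0.968 to 1.27, p from 0.0823 to 0.542), so this test does not set replicates apart at this depth. Intervals below are exact Poisson or Wilson 95% intervals and cover counting error only.

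The block was a place of few contacts for their distance, in hESC and more so in neuroectoderm. Contact was measured as the deposited value over the mean value of all bin pairs at the same distance in that library. Summed over all window pairs separated by 20 kb or more, the hESC libraries gave 0.848 and 0.838 and the neuroectoderm libraries 0.740 and 0.747, so that the groups did not overlap. The hESC mean was 0.843 ± 0.0072 (SD, n = 2) and the neuroectoderm mean 0.743 ± 0.0048 (SD, n = 2), a difference larger than the spread between replicates. With 2 libraries against 2 the exact two-sided permutation test cannot go below 0.333, which is its p here. Of 1028 stretches of the same length along the matrix, which overlap each other and include the block, 29.9% and 29.3% had a lower value by the hESC libraries and 8.56% and 8.66% by those of neuroectoderm. The shortfall grew with distance. At 100 to 200 kb the hESC libraries were at 0.587 and 0.605 and neuroectoderm at 0.458 and 0.532, resting on 232, 245, 84 and 107 read pairs. At 20 to 40 kb hESC stood at 0.941 and 0.940, and neuroectoderm at 0.860 and 0.808.

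Among the sets of window pairs compared here, contact was closest to the expectation inside METTL16 and lowest between METTL16 and the genes to its left. Pairs between the 2 sides reach longer distances than pairs within a side. The shortfall grew with distance, so distance and division cannot be told apart in this comparison. The windows were split at the window that holds the start of MNT and the 3′ end of METTL16, a division made after the values had been seen. Within the METTL16 windows contact was close to the mean of its distance, at 0.941 and 0.952 in hESC and 0.976 and 0.859 in neuroectoderm, so that the groups overlapped. Within the windows from SRR to MNT it was 0.904 and 0.871 in hESC and 0.719 and 0.813 in neuroectoderm. Between the 2 sides it was lowest, at 0.722 and 0.708 in hESC and 0.551 and 0.645 in neuroectoderm. In these last 2 sets the neuroectoderm libraries lay below the hESC libraries but also spread more widely, and the Poisson intervals of both neuroectoderm replicates overlapped those of hESC replicate 2. Between the 2 sides the ratio of read pairs to their expectation was 0.643 (0.562 to 0.732) in neuroectoderm replicate 2 and 0.689 (0.629 to 0.753) in hESC replicate 2. In replicate 1 it was 0.550 and 0.696. Lower ratios were found for read pairs crossing other windows. They were 0.646 and 0.660 in hESC at chr17:2418501-2428500, and 0.533 and 0.541 in neuroectoderm at chr17:2348501-2358500.

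**Figure D1:**
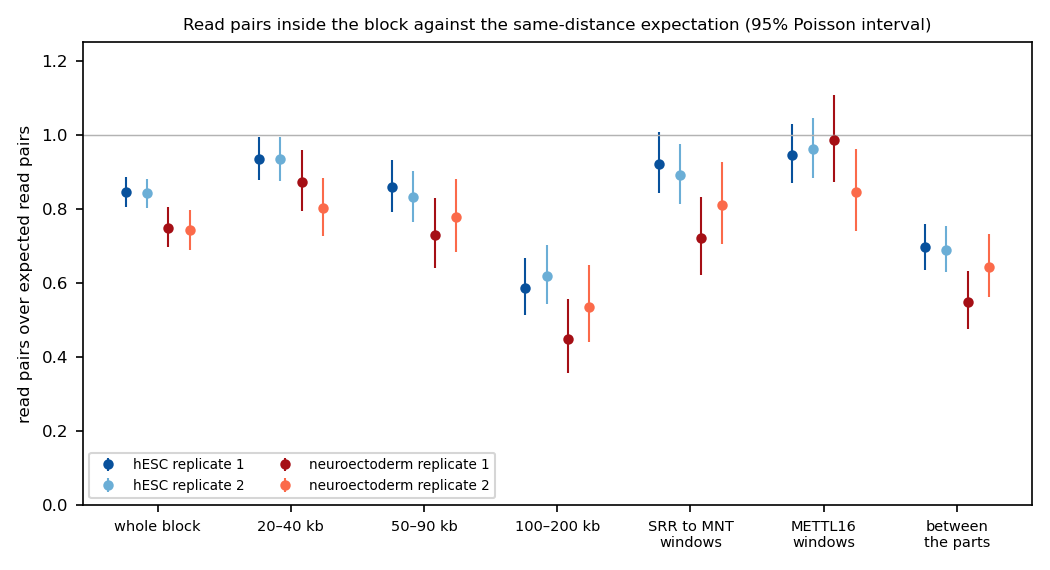
Read pairs at least 20 kb apart over the number expected at their distance (y axis, no unit), for the whole block, for 3 distance ranges and for the 2 sides of the block and the pairs between them (x axis). Points are single libraries and bars are exact Poisson 95% intervals. Whole-block ratios were 0.845 and 0.842 for hESC and 0.749 and 0.743 for neuroectoderm, and the lowest were those at 100 to 200 kb, from 0.449 to 0.619.

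The maps of the block give these contacts window by window, and here too distance and division cannot be told apart. In both cell types the corner that joins SRR, TSR1 and SGSM2 to the right part of METTL16 held fewer read pairs than its distance predicts. The pale triangle at the lower right is METTL16, where most window pairs lay near the expectation.

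**Figure D2:**
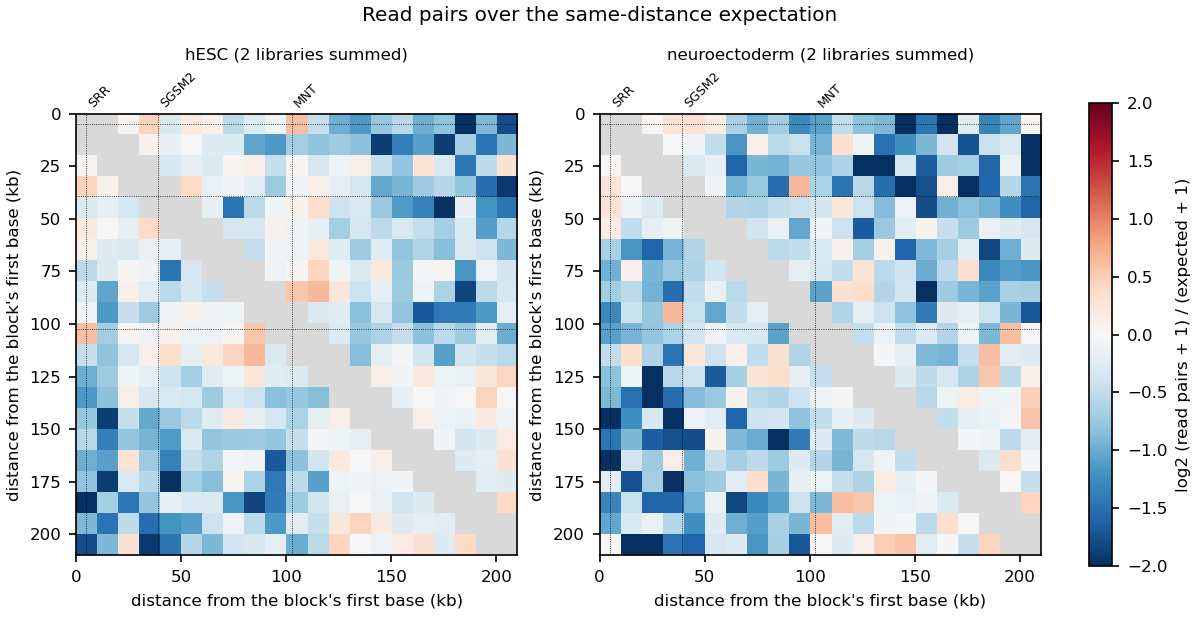
Read pairs between the 21 windows of the block in hESC and in neuroectoderm (2 libraries summed per map), as log2 of read pairs plus 1 over expected read pairs plus 1. Both axes give the distance from the first base of the block in kb, pairs under 20 kb apart are grey, and dotted lines mark the starts of SRR, SGSM2 and MNT. Blue, fewer pairs than expected, fills the corners between SRR to SGSM2 and METTL16 in both maps, and in neuroectoderm it extends further toward the diagonal.

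Insulation was then used to place borders. The insulation score of a bin is log2 of the contact that crosses it over the contact expected at the same distances, between the windows within 100 kb on its left and those within 100 kb on its right, so that a low score means that few contacts cross. It is relative to the mean of its own library. A border is a local minimum below 0 that stands at least 0.2 under the higher ground on either side (its prominence), counted for a cell type when both replicates have one within 20 kb. In hESC this gave 1 border, inside METTL16 near its 3′ end. In replicate 1 it lay at chr17:2416501-2426500, with a score of -0.66 and 490 read pairs crossing, and in replicate 2 at chr17:2406501-2416500, with a score of -0.62. The prominence was 1.23 in replicate 1 but 0.25 in replicate 2, close to the limit of 0.2. The window of replicate 2 holds the CTCF core match of METTL16, and that of replicate 1 holds none. Replicate 1 also had a minimum of -0.65 in SGSM2, at chr17:2365501-2375500, with no counterpart in replicate 2. The lowest score of hESC replicate 2 in the block, -0.66, was at its first bin, over the starts of SMG6 and SRR, and was not a border by this rule.

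In neuroectoderm the lowest point lay further left, in SGSM2. Replicate 1 had its minimum at chr17:2345501-2355500, with a score of -0.92 and 192 read pairs crossing, and replicate 2 at chr17:2371501-2381500, with a score of -0.89 and 192 read pairs crossing. The first window holds the CTCF core match at 2353222, and the second holds none. The 2 minima had prominences of 1.60 and 1.52 but lay 26 kb apart. Neuroectoderm thus had 0 borders by the rule and 1 when 30 kb was allowed. The prominences describe the depth of the whole valley, as other bins were nearly as low. Replicate 2 scored -0.87 at chr17:2349501-2359500. Replicate 1 scored -0.89 at chr17:2399501-2409500, over the gap between MNT and METTL16, where replicate 2 scored -0.62. The valley was broad. In the 6 non-overlapping windows from chr17:2338501-2398500, along SGSM2 and into MNT, the scores of the 2 replicates lay between -0.73 and -0.90. Averaged over replicates, the profile had its lowest bin at chr17:2416501-2426500 in hESC (-0.63), nearly level with the first bin of the block over the starts of SMG6 and SRR (-0.63), and at chr17:2345501-2355500 in neuroectoderm (-0.89).

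Scores over other ranges moved the minima, in hESC between METTL16 and SGSM2 as well, and did not settle a single position. At 50 kb on either side, the hESC border was sharpest, at chr17:2420501-2430500 and chr17:2421501-2431500 in replicates 1 and 2, which are 1 kb apart, with scores of -0.56 and -0.52. Neither of these windows holds a CTCF core match. At 50 kb neuroectoderm had 3 borders. They lay over the start of SGSM2 (chr17:2337501-2347500 and chr17:2335501-2345500), late in SGSM2 (chr17:2369501-2379500 and chr17:2363501-2373500) and near the start of METTL16 (chr17:2498501-2508500 and chr17:2495501-2505500). Of these windows only those late in SGSM2 hold a match. Neuroectoderm also had minima near the 3′ end of METTL16, at chr17:2403501-2413500 in replicate 1 (-0.67) and chr17:2424501-2434500 in replicate 2 (-0.71). These lay more than 20 kb apart and so were not counted as a border. At 150 kb hESC again had a border at chr17:2416501-2426500 and chr17:2406501-2416500, but in replicate 1 its prominence was 0.21 and the lowest point of the block lay in SGSM2, at chr17:2365501-2375500 (-0.74, prominence 1.29). The neuroectoderm minima of -1.05 and -1.02 were at chr17:2370501-2380500, which holds no match, and chr17:2348501-2358500, which holds that at 2353222. At 200 kb it was neuroectoderm that had a border in both replicates, at chr17:2345501-2355500 and chr17:2348501-2358500, with scores of -1.18 and -1.06 and 411 and 441 read pairs crossing. Both of these windows hold the CTCF core match at 2353222. The hESC minima at 200 kb, -0.78 and -0.74, were at chr17:2366501-2376500 in replicate 1, which holds the match at 2369930, and at chr17:2406501-2416500 in replicate 2, so hESC had 0 borders at that size. In all 4 libraries 0 bins of the matrix scored lower at 200 kb than the lowest bin of the block, among 1037 to 1045 bins scored. At 100 kb, in contrast, 25 to 86 bins of the matrix scored lower.

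**Figure D3:**
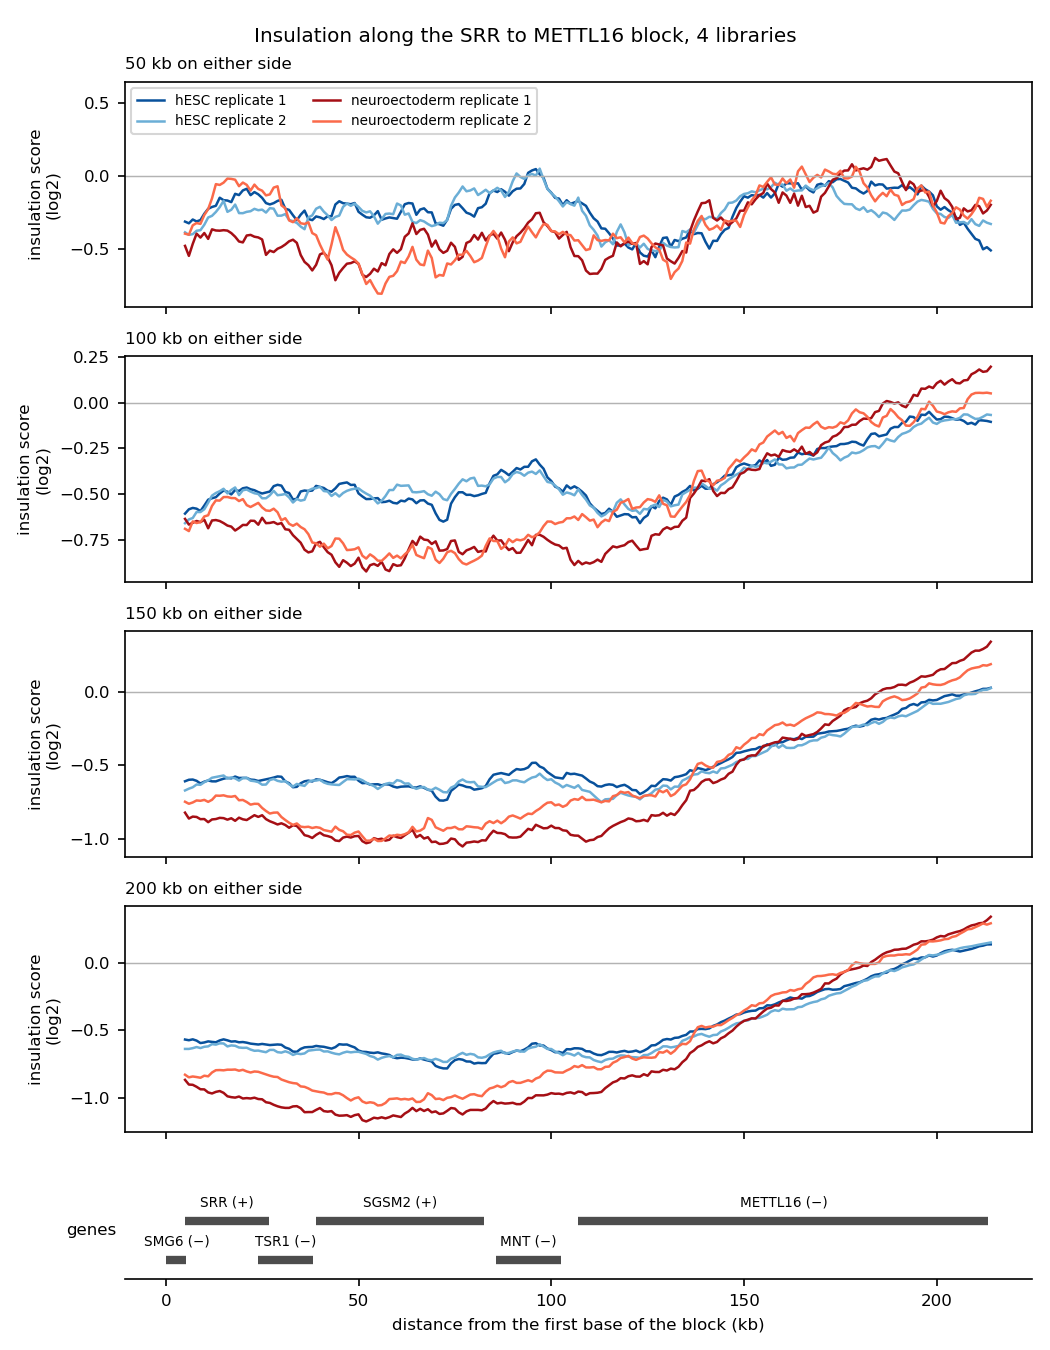
Insulation score (y axis, log2) at each 1-kb step along the block (x axis, distance from its first base in kb) for the 4 libraries, with 50, 100, 150 and 200 kb on either side from top to bottom and the protein-coding genes with their strands at the foot. At 100 kb the neuroectoderm lines form a valley over SGSM2 with minima of -0.92 and -0.89, the hESC lines dip to -0.66 and -0.62 near the 3′ end of METTL16, and all 4 lines climb through METTL16.

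The crossing was also counted in read pairs, with the mean profile's lowest bin of each cell type as the position. Taking pairs at least 20 kb apart within the block, and leaving out the window at the position itself, 27.0% ± 0.75 (SD, n = 2) of hESC pairs crossed the lowest point of the neuroectoderm profile in SGSM2. Of neuroectoderm pairs 22.2% ± 0.57 (SD, n = 2) did. These were 442 of 1606 and 425 of 1606 read pairs in hESC, and 153 of 701 and 153 of 676 in neuroectoderm. Wilson intervals reached from 24.4% to 28.7% in hESC replicate 2 and from 19.6% to 25.9% in neuroectoderm replicate 2, which overlap, while the same-distance expectation was 31.2% and 31.3% in these 2 libraries. Across the hESC border in METTL16 the hESC shares were 28.3% and 29.2% and those of neuroectoderm 29.5% and 33.6%, where 38.4%, 38.8%, 38.6% and 38.6% were expected. The positions were the lowest points of these same libraries' profiles, a choice that favours fewer crossings in the cell type that gave the position, so the shares are a description and were not tested.

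Whether insulation differed between the cell types was tested with limma on the 114 non-overlapping windows of the matrix that were scored in all libraries. After Benjamini-Hochberg adjustment over these, 8 of the 21 windows of the block had a p-value under 0.05, and all 8 were lower in neuroectoderm. They form an unbroken run from chr17:2328501-2408500, which takes in the start of TSR1, the whole of SGSM2, the whole of MNT and the 3′ end of METTL16. Over the matrix 32.5% of windows were called, and 20.2% were called lower in neuroectoderm. Outside the block 15 of 93 windows were lower and 14 were higher. Scores of neighbouring windows share window pairs, so the 8 windows are not 8 separate observations, and calls were common all along the matrix.

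At 100 kb on either side the largest difference in the block was inside MNT, whereas at 50, 150 and 200 kb and on recovered read pairs a window in SGSM2 differed more. At chr17:2388501-2398500 the hESC scores were -0.32 and -0.38 and those of neuroectoderm -0.78 and -0.74. In hESC this window stood higher than its neighbours, and at 50 kb on either side the profile reached 0.05 nearby in both replicates. At that range alone, contacts in hESC crossed there about as often as their distance predicts, whereas both neuroectoderm libraries stayed below 0. The 50 kb difference of this window was -0.37 and was not called (limma adjusted p = 0.0536). At 100 kb the difference was -0.41 (SE 0.053, limma adjusted p = 0.00648), which is larger than the spread between replicates. Here 575 and 582 read pairs crossed in hESC, against 739 and 750 expected, and 209 and 222 in neuroectoderm, against 360 and 370 expected. In the middle of SGSM2, at chr17:2348501-2358500, the hESC scores were -0.52 and -0.55 and those of neuroectoderm -0.89 and -0.87, a difference of -0.34 (SE 0.051, limma adjusted p = 0.00648). At the start of SGSM2 and TSR1, chr17:2328501-2338500, they were -0.49 and -0.54 against -0.77 and -0.68, and the difference was -0.21 (SE 0.056, limma adjusted p = 0.0219). Over the gap between MNT and METTL16, at chr17:2398501-2408500, neuroectoderm replicate 1 scored -0.86 and replicate 2 -0.63, against -0.47 and -0.50 in hESC (-0.26, SE 0.077, limma adjusted p = 0.0318).

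At 100 kb on either side, no window toward the ends of the block passed the test. At the starts of SMG6 and SRR the hESC scores were -0.61 and -0.66 and those of neuroectoderm -0.64 and -0.69, which is within the spread between replicates (-0.030, SE 0.054, limma adjusted p = 0.673). At 200 kb on either side, however, this window was called lower in neuroectoderm (-0.25, limma adjusted p = 0.00467). Both cell types thus had few contacts across this point. At chr17:2418501-2428500, next to the hESC border, the replicates of neuroectoderm were at -0.80 and -0.53, on either side of the hESC values of -0.62 and -0.58 (-0.063, SE 0.086, limma adjusted p = 0.586). Without neuroectoderm replicate 2 the difference was -0.20, from a fit with 1 neuroectoderm library. From chr17:2448501 to the right end the mean score was higher in neuroectoderm in each window, by up to 0.14, and none passed the test. At the last window, chr17:2498501-2508500, the hESC scores were -0.094 and -0.091 and those of neuroectoderm 0.11 and -0.051 (limma adjusted p = 0.188). It was called higher in neuroectoderm at 150 kb (0.18, limma adjusted p = 0.0178) and at 200 kb (0.12, limma adjusted p = 0.0401). Without neuroectoderm replicate 2 the difference was 0.20.

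Counted at each 1-kb step, both neuroectoderm scores were below both hESC scores at 119 of the 210 bins of the block (56.7%), with 38.9% of the scored bins of the matrix doing so. The longest run, 111 bins, covered chr17:2299501-2419500. At 50, 150 and 200 kb on either side the bins were 94, 124 and 131 (44.8%, 59.0% and 62.4%), against 30.5%, 41.8% and 53.3% in the matrix. Both neuroectoderm scores were above both hESC scores at 59 bins (28.1%), against 33.7% in the matrix, and their longest run lay in METTL16 (chr17:2463501-2494500). At the other 3 sizes there were 27, 56 and 52 such bins, against 34.2%, 33.2% and 35.1% of the matrix, so bins of this kind were no more common in the block than elsewhere.

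**Figure D4:**
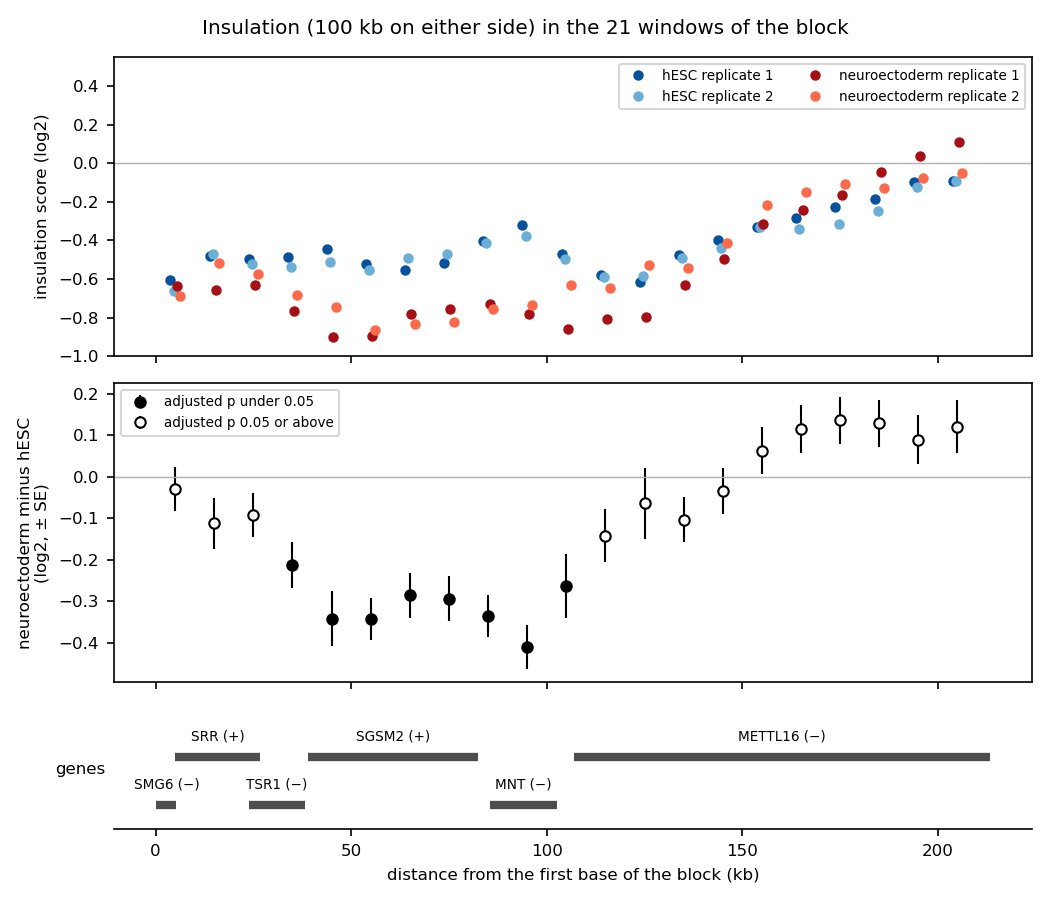
Insulation scores (100 kb on either side, log2) of the 4 libraries in the 21 windows of the block (top), and neuroectoderm minus hESC with its standard error from limma (middle), against distance from the first base of the block in kb, with genes below. Filled points are the 8 windows with an adjusted p under 0.05, which run from the start of TSR1 through MNT to the 3′ end of METTL16. They reach -0.41, and the points over METTL16 cross 0 to positive values.

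The result depended on the distance range. At 50 kb on either side 0 of the 21 windows were called (smallest limma adjusted p = 0.0536), and 0 of 130 over the matrix. At that size 6 of the 21 had an unadjusted limma p under 0.05, all lower, as had 44 of the 130 in either direction. At 150 kb 14 were called, 11 of them lower, and at 200 kb 15, 12 of them lower. Over the matrix 51.9% and 53.8% were called at these 2 sizes in either direction. Without neuroectoderm replicate 2 the differences of the 8 windows at 100 kb ran from -0.43 to -0.26. Some measured properties moved with the 8 windows, and their part in the result was not tested: their GC content was 49.4% to 61.2% against 40.9% to 49.1% in the other 13 windows, and the median share of a window's read pairs that stayed within it was 30% and 29.5% in the neuroectoderm libraries against 27.5% and 24.5% in the other windows (16.1% and 16.2% against 15.2% and 15.0% in hESC). When each matrix was balanced again without pairs under 20 kb, an alternative added after seeing the data, 6 of the 8 windows were called and the difference in MNT was -0.39.

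Single window pairs gave no calls between the cell types. Limma on log2(value + 1) found 0 of 4479 window pairs changed at an adjusted p under 0.05 over the matrix (0%), with 253 at an unadjusted p under 0.05, and 0 of 183 in the block, with 15 at an unadjusted p under 0.05. Of the 183, 122 were below 0, and their median change was -0.26, against -0.022 over all 4479. The exact one-sided Poisson test found 0 of the 190 window pairs of the block above the same-distance expectation in both replicates of hESC, where 0.168% of 10733 window pairs of the matrix were called, and 0 in neuroectoderm, where 0% were. With the 2 hESC libraries summed, 1.57% of the matrix and 1 pair of the block were called. This pair, which is named after its values were seen, joins the end of SGSM2 and the 3′ part of MNT (chr17:2378501-2388500) to the start of MNT (chr17:2398501-2408500). It held 40 and 36 read pairs in hESC, against 24.3 and 26.9 expected (adjusted exact Poisson p = 0.0452 on the sum), and 8 and 3 in neuroectoderm, against 12.2 and 12.1 expected. The change between cell types was -1.80 (SE 0.50, limma adjusted p = 0.781) on the log2(value + 1) scale.

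Contacts between the starts of the genes were few, and they were described pair by pair with the 10-kb bin centred nearest each start. SRR and SMG6 share a bin here, as their starts face away from each other, and the bins of TSR1 and SGSM2 overlap almost wholly, so that each of these pairs of genes cannot be told apart. The starts of SRR and MNT, 98 kb apart, had 19 and 17 read pairs in hESC, where 11.1 were expected in each library, and 3 and 0 in neuroectoderm, where 3.65 and 3.54 were expected. The ratios were 1.71 (1.03 to 2.67) and 1.53 (0.891 to 2.45) in hESC and 0.821 (0.169 to 2.40) in neuroectoderm replicate 1, and 0 in replicate 2, with an upper limit of 1.04 by the exact two-sided interval (0.849 by the floor of 3 read pairs). The intervals of the cell types overlapped. For the 2 non-overlapping windows closest to these starts the change was -1.77 (SE 0.46, limma adjusted p = 0.781).

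The other pairs of gene starts lay on both sides of the expectation. SRR and TSR1, 33 kb apart, had 27 and 32 read pairs in hESC against 23.1 and 22.2 expected, and 7 and 16 in neuroectoderm against 8.80 and 7.96, so that the neuroectoderm replicates fell on opposite sides of the expectation, with ratios of 0.796 (0.320 to 1.64) and 2.01 (1.15 to 3.27). TSR1 and MNT, 65 kb apart, had 12 and 9 in hESC against 15.6 and 16.1 expected, and 5 and 5 in neuroectoderm against 5.18 and 4.68. MNT and METTL16, 110 kb apart, had 8 and 11 in hESC against 9.79 and 9.74, and 1 and 4 in neuroectoderm against 3.03 and 3.51. The starts of TSR1 and METTL16, 175 kb apart, had the reverse pattern, with 0 read pairs in each hESC library, where 5.70 and 5.03 were expected, with upper limits of the ratio of 0.648 and 0.733 by the exact two-sided interval (0.527 and 0.596 by the floor of 3 read pairs), and 3 and 1 in neuroectoderm, where 2.19 and 2.03 were expected. SRR and METTL16, at the 2 ends of the block and 208 kb apart, had 6 and 3 in hESC against 4.32 and 4.50, and 0 and 1 in neuroectoderm against 2.05 and 1.52. Differences between the cell types in these pairs were not tested beyond the window pairs above.

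**Figure D5:**
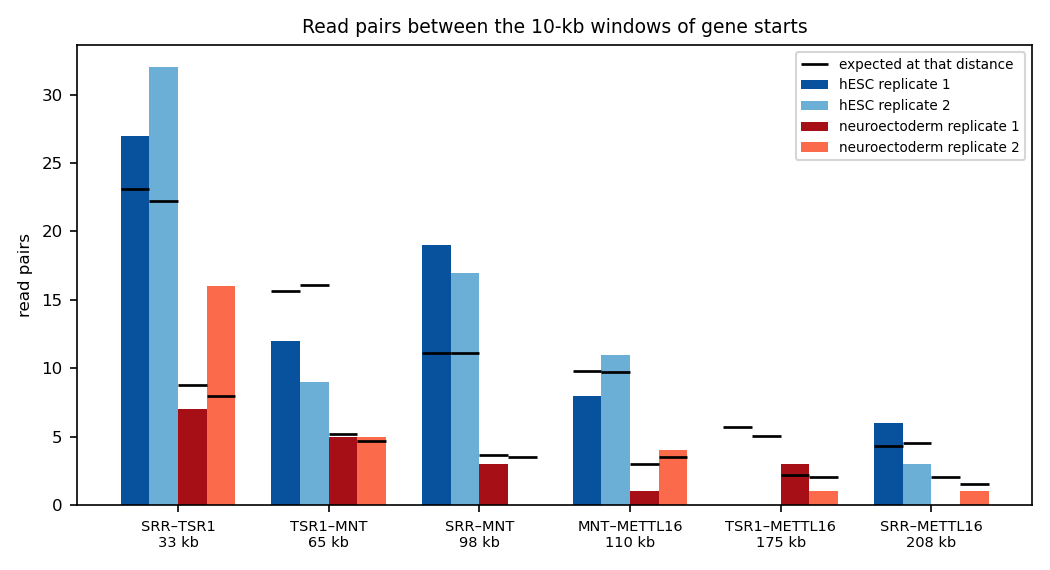
Read pairs (y axis) between the 10-kb bins of gene starts, for 6 pairs ordered by their distance in kb (x axis), in the 4 libraries. Bars are counts and black lines the counts expected at that distance, and SRR with MNT shows 19 and 17 pairs in hESC above 11.1 expected and 3 and 0 in neuroectoderm.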

How the data were processed

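Hi-C had been carried out on 2 hESC and 2 neuroectoderm libraries, and groups were taken from the sample labels. Per the study's methods and notes, the authors cross-linked cells with formaldehyde, used a commercial Hi-C kit, aligned reads to hg38 with Bowtie2 and built matrices with HOMER, whose versions are not given in the sources used here. The deposited values are a contact signal per pair of bins, balanced within each library to equal row totals but not scaled between libraries. A bin was taken to run from 4500 bp left of its name to 5500 bp right of it, as in the study's list of interactions.

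Each value is a number of read pairs times a factor per bin, and dividing by these factors gave whole numbers (within 0.1) for 100% of values over 0, which were taken as read pairs. Their intervals have a level of 95%, the floor is 3 read pairs, and reads carry no molecular identifiers. Expected contact was each library's own mean over all bin pairs of that distance. A score needed at least 50% of its window pairs. Non-overlapping windows every 10 bins were used for tests. Neuroectoderm was compared with hESC with limma 3.58.1 in R 4.3.3 on scores, and on log2(value + 1) for window pairs with a mean above the median after scaling to the mean total, with Benjamini-Hochberg adjustment over the matrix. This scale understates changes of low pairs. Counts used exact Poisson tests (scipy 1.17.1). The scripts were tested on simulated data. Deviations of libraries with the same replicate number correlated by 0.23 over 114 windows and by -0.021 over 4479 window pairs. The labels give no shared batch, so the number was not used as a block in the main fit.

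Named genes were all protein-coding genes with a start in the block, with the pairs between their starts, the borders, and called windows and pairs. The block, gene lists, the motif and tests were chosen with earlier results of these data known. Alternatives were other score ranges, prominence, pseudocount, filter, scaling, window placement, expectation, balancing, a replicate block and leaving out each library. Contacts outside the deposited region were not analysed here.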

Additional observations from a re-analysis of the deposited data

How the results depend on the processing

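The 8 windows of the block with lower insulation scores in neuroectoderm kept this direction in all 88 refits of single windows under 11 alternatives. These windows were picked by their calls in the same libraries and their scores share window pairs, so the refits are not separate support. With the replicate block the difference is the same by construction. Of the 8 windows, 0 passed the threshold at 50 kb, 6 after rebalancing, 7 on recovered read pairs and 8 at 150 kb and 200 kb. The number of windows of the block called was 0 at 50 kb on either side, 14 at 150 kb and 15 at 200 kb, and between 6 and 13 when 1 library was left out. With the replicate block it was 8. Of windows that were not called, that at the starts of SMG6 and SRR turned to 0.017 on recovered read pairs but was called lower at 200 kb (-0.25). That next to the hESC border turned to 0.0090 at 50 kb and 0.022 on recovered read pairs. It ranged from -0.20 to 0.072 when 1 library was left out. The last window was called higher at 150 kb (0.18) and at 200 kb (0.12), and its difference was 0.20 without neuroectoderm replicate 2. The cause of these changes was not tested.

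The number of borders depended on the setting. In hESC it was 1 at the main setting, 0 at 200 kb and at a prominence of 0.4, 2 on recovered read pairs, and 1 to 2 in single replicates. In neuroectoderm it was 0 at the main setting, 3 at 50 kb, 1 at 200 kb, 1 after rebalancing without pairs under 20 kb, 1 with replicate borders up to 30 kb apart and 1 in each single replicate. On recovered read pairs 1 of the 2 hESC borders lay in SGSM2, at chr17:2364501-2374500 in replicate 1 and chr17:2345501-2355500 in replicate 2. The lowest minimum of neuroectoderm replicate 1 was then near the 3′ end of METTL16 (chr17:2401501-2411500, -0.98). That of replicate 2 stayed in SGSM2 (chr17:2370501-2380500, -0.99). Rebalancing, the 30 kb limit, 150 kb for the test between cell types, and, in that test, the scores on recovered read pairs and the same-distance mean outside the block were chosen after seeing the data.

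Contact in the block stayed lower in neuroectoderm throughout. Windows moved by 5 kb gave 0.834 for hESC and 0.765 for neuroectoderm, pairs at least 30 kb apart 0.808 and 0.715, the same-distance mean outside the block 0.829 and 0.723, and rebalancing 0.786 and 0.712. The share of read pairs crossing the hESC border was 31.5% in hESC with windows moved by 5 kb, and 37.7% in hESC and 40.6% in neuroectoderm for pairs at least 30 kb apart. Across the neuroectoderm minimum it was 23.6% and 20.1% with windows moved, and 34.5% and 28.5% at 30 kb or more.

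No alternative gave a call among window pairs of the block between cell types. Above the same-distance mean, only the summed hESC libraries gave 1. Neuroectoderm window pairs held a mean of 3.96 to 3.98 read pairs.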
